A study of Homo sapiens with 24 samples.

Results

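The 10 genes described here, members of the Notch pathway, were followed in 4 human lung cancer cell lines in which the mRNA of HEPACAM2, an immunoglobulin superfamily cell adhesion protein, had been altered. They were taken by name, with earlier results of these data known: 3 receptors (NOTCH1, NOTCH2, NOTCH3), 4 ligands (DLL1, DLL3, JAG1, JAG2) and 3 genes that Notch signalling switches on (HES1, HEY1, NRARP). These 10 are among 60623 genes listed in the series, and all 10 had a row in the table of every line. A549 and H1299 are non-small cell lung cancer lines, and their OE libraries carry the genotype label HEPACAM2 overexpressed. DMS454 and H1694 are small cell lung cancer lines, and their CRISPR libraries carry the genotype label HEPACAM2 knockdown. The control libraries of all 4 lines carry the genotype label WT. There were 24 libraries, 3 in each of 8 groups, which the submitters describe as independent biological replicates. How the lines were made (vector, guide, and whether 1 clone or a pool was used) is not given in the sources used here.

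Notch receptors are membrane proteins that are cut after they bind a ligand on a neighbouring cell. The freed intracellular domain enters the nucleus and, with the DNA-binding protein RBPJ and a Mastermind coactivator, turns on genes such as HES1, HEY1 and NRARP. HES1 and HEY1 are repressors of other transcription factors, and NRARP is a small ankyrin protein that limits Notch signalling. In the lung, Notch signalling restrains the neuroendocrine fate. Most small cell lung cancers are neuroendocrine, and many express DLL3, a ligand that acts inside the same cell to inhibit Notch.

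The promoters of the target genes are shown because the Notch complex binds DNA through RBPJ, whose textbook site reads GTGGGAA or GTGTGAA. RefSeq promoters on GRCh38.p14 were used for 7 of the 10 genes (not DLL1, DLL3 or HEY1), and the 250 bases before the annotated start were searched on both strands. Capitals in the sequences below mark a match, and each runs 5′ to 3′ on the strand of the gene. HES1 lies at chr3:194135898-194136147 on the plus strand, and NRARP at chr9:137302272-137302521 on the minus strand.
HES1: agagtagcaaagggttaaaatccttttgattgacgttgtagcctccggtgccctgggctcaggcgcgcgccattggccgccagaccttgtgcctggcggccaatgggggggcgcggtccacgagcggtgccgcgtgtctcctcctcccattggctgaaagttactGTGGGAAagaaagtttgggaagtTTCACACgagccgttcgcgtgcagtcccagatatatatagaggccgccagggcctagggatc
NRARP: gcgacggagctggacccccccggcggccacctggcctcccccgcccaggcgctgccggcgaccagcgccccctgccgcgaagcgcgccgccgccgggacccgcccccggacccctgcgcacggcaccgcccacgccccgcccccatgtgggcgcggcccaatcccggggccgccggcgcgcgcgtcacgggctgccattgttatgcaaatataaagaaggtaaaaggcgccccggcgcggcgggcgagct
HES1 held GTGGGAA from base 85 to base 79 before the start, and TTCACAC, which is GTGTGAA on the other strand, from base 62 to base 56. The windows of NRARP, NOTCH1, NOTCH2, NOTCH3, JAG1 and JAG2 held neither motif. Among 35116 RefSeq promoter windows of this length, 5.43% held GTGGGAA, 2.48% held GTGTGAA and 7.72% held either. Lack of a match says only that these letters are not in these windows.

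The targeted gene was read first. HEPACAM2 stood at 0.367 ± 0.635 (SD, n = 3) normalized counts in the A549 controls and 6007 ± 124 with OE, and at 2.88 ± 0.724 and 25322 ± 1795 in H1299. The labelled controls of DMS454 held 6550.1 ± 124 and the libraries labelled CRISPR 11187 ± 314, and those of H1694 held 3557 ± 127 and 10356 ± 214. HEPACAM2 mRNA thus went against the genotype label of knockdown, being higher where the label says CRISPR. In these 2 lines the column headers of the labelled controls hold the letter G, and those of the libraries labelled CRISPR hold pL. What these letters stand for is not given in the sources used here, and whether the labels were exchanged was not tested. Every change below is OE minus control, or labelled CRISPR minus labelled control. In all 4 lines the positive direction is therefore the arm with more HEPACAM2 mRNA, and in DMS454 and H1694 every sign turns if the labels of the arms were exchanged.

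Library totals ran from 12704476 to 31770858 reads. Some libraries stood apart from the others of their group, as shown by the mean chi-square per gene between libraries of a group. It was 21.1 to 30.7 for each pair that held a library numbered 1 in H1299, against 2.64 and 6.69 for the pairs without one. Pairs with the third DMS454 library labelled CRISPR gave 16.5 and 21.7, against 3.39. Pairs with the first H1694 library labelled CRISPR gave 19.5 and 27.1, against 3.51. The H1299 libraries numbered 1 also differed in how counts went with GC content. In the other controls, GC-rich genes were lower than GC-poor ones by 0.34 and 0.36 on the log2 scale, while in control 1 they were higher by 0.21. In OE 1 they were lower by 0.19, while in the other OE libraries they were higher by 0.34 and 0.345. With the libraries numbered 1 left out, arm and GC trend therefore go together in H1299. Their parts in a change cannot be told apart in that setting. Values without these libraries are given wherever they change a call or its direction. The neuroendocrine small cell markers, which include the member DLL3, matched the labels: 10 of 10 reached 1 RPKM (reads per kilobase of exon, scaled to the total reads of the library) in DMS454 and 8 of 10 in H1694, but 2 of 10 in A549 and in H1299. In both of the latter lines DLL3 was 1 of those 2. Blood marker sums were at most 0.325 in every library. Marker sums of several lists moved with the arms. For mesenchymal markers the sum was 156.5 to 161 in A549 controls and 216.6 to 227.7 with OE, and 622.8 to 696.1 against 1175 to 1263 in H1299. In DMS454 it was 45.2 to 49.3 in the labelled controls and 59.2 to 66.5 in the libraries labelled CRISPR, while in H1694 the arms overlapped at 26.7 to 29.3 and 27.7 to 31.7. A single gene held most of each mesenchymal sum. By means over all libraries of a line, it was VIM in A549 (172.3 RPKM) and H1299 (926.1), and CDH2 in DMS454 (48.9) and H1694 (19.8). VIM was at 0.0355 in DMS454. The sum of lung epithelial markers was lower in the OE or labelled CRISPR arm of 3 lines. Control and then treated sums were 2503 to 2557 and 2230.3 to 2312 in A549, 722.7 to 735.8 and 701.7 to 716.9 in DMS454, and 13.8 to 14.25 and 11.75 to 12.7 in H1694. NKX2-1 held most of the H1694 sum, with a mean of 8.36 RPKM over its libraries, where KRT8 was at 0.0285. In H1299 the arms overlapped, at 239 to 278.8 and 215.5 to 244.8. The neuroendocrine sum of H1694 was 703.9 to 721.6 in the labelled controls and 662.7 to 695.3 in the libraries labelled CRISPR, and that of A549 was 8.17 to 8.37 and 7.001 to 7.99, while the arms of H1299 and DMS454 overlapped. NEUROD1 was the largest part of the H1694 sum, with a mean of 267 RPKM over its libraries. Its log2 change there was -0.04, while DLL3 (0.52) and INSM1 (0.19) of the same list were higher in that arm. The H1694 sum therefore does not give the direction of each marker. Most of the A549 sum was the member DLL3 itself, with a mean of 5.77 RPKM over the libraries of that line. Fibroblast markers summed to 1.80 to 2.11 in A549 controls and 10.7 to 11.6 with OE (5.24 to 5.52 and 4.06 to 4.87 in H1694), with COL1A2 and DCN at 0 or not listed in A549. COL1A1 held most of the A549 fibroblast sum, with a mean of 6.02 RPKM over its libraries, where COL3A1, the next, had 0.343. Of the endothelial markers CDH5 alone passed 1 RPKM, in H1694, where the list summed to 21.4 to 21.9 and 24.6 to 25.6. The part of these marker changes in those of the Notch genes was not tested.

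Before any comparison of arms, the lines differed widely in which Notch genes they expressed. Control levels are given here in RPKM (mean ± SD of 3 control libraries). The tables of the lines were normalized separately, so no test was made between lines. The highest level lay in a small cell line for 6 of the 10 genes (NOTCH1, DLL1, DLL3, JAG2, HEY1 and NRARP). A549 led for NOTCH3, JAG1 and HES1, and H1299 for NOTCH2.

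**Figure D1:**
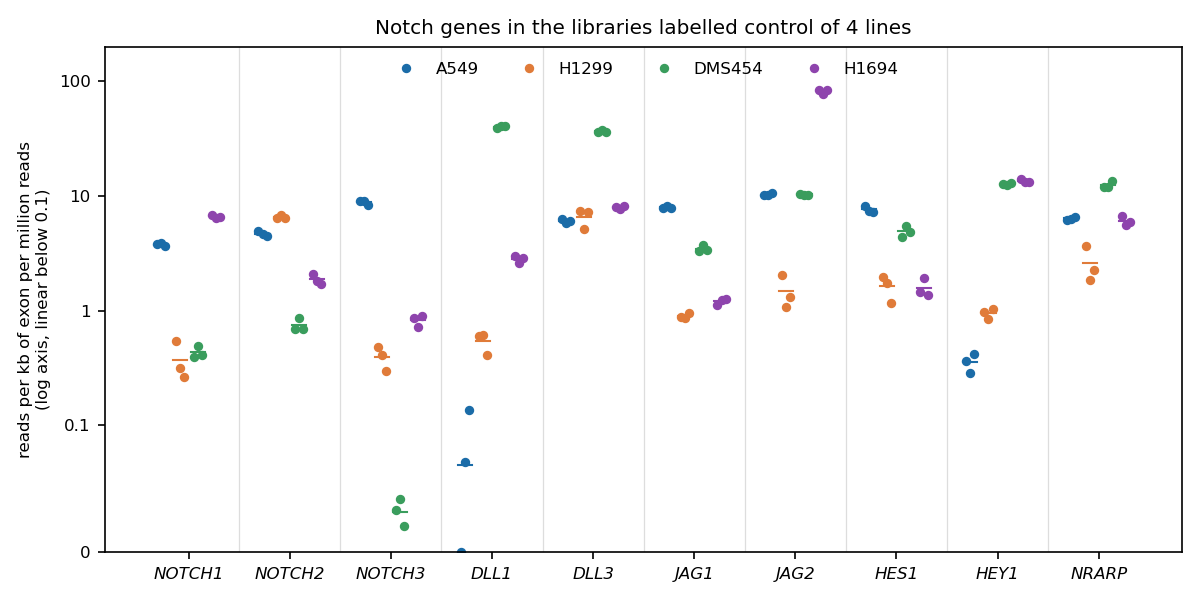
Control level of each of the 10 Notch genes in the 4 lines, in RPKM, on a symmetrical log axis that is linear below 0.1. Points are the 3 control libraries of a line and the horizontal line is their mean: DLL1 spans 0.0686 to 40.3 and NOTCH3 0.0318 to 8.85 between lines, while HES1 spans 1.58 to 7.63.

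Among the receptors, NOTCH3 varied most. Its control level was 8.85 ± 0.423 in A549, 0.824 ± 0.0986 in H1694, 0.395 ± 0.0926 in H1299 and 0.0318 ± 0.0107 in DMS454, a 278.5-fold range in which no neighbours overlapped. NOTCH1 was highest in H1694 at 6.63 ± 0.210, followed by A549 at 3.77 ± 0.0972. It was low in DMS454 (0.433 ± 0.0498) and H1299 (0.374 ± 0.150), whose libraries overlapped. NOTCH2 went from 6.56 ± 0.231 in H1299 through 4.69 ± 0.282 in A549 and 1.87 ± 0.192 in H1694 to 0.747 ± 0.10 in DMS454. DMS454 was thus low in all 3 receptors. NOTCH2 has near-identical partial copies (NOTCH2NLA, NOTCH2NLB, NOTCH2NLC and NOTCH2NLR) that can share its reads, so its values are uncertain. NOTCH2NLC had 7.34 to 20.1 normalized counts in A549, the highest of any copy in any line, and every copy was at 0 in H1694.

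The ligands divided the lines further. DLL1, a ligand that activates Notch on a neighbouring cell, stood at 40.3 ± 0.940 in DMS454, 2.80 ± 0.196 in H1694, 0.537 ± 0.113 in H1299 and 0.0686 ± 0.0675 in A549. DLL3 was 36.8 ± 0.646 in DMS454, 7.97 ± 0.272 in H1694, 6.62 ± 1.31 in H1299 and 6.03 ± 0.265 in A549, the last pair overlapping. JAG2, a ligand of the Jagged class, reached 82.1 ± 3.31 in H1694. It was 10.3 ± 0.209 in A549 and 10.3 ± 0.172 in DMS454, whose libraries overlapped, and 1.48 ± 0.512 in H1299. JAG1, the other Jagged ligand, was 7.97 ± 0.149 in A549, 3.48 ± 0.249 in DMS454, 1.21 ± 0.0766 in H1694 and 0.900 ± 0.0509 in H1299. The Delta ligands were therefore highest in DMS454 and JAG2 in H1694. DLL4, a further Delta ligand of the pathway list, was at 78.1 ± 1.84 in DMS454 and had means of 0.101, 0.0207 and 0.168 in the controls of A549, H1299 and H1694; it was singled out after its values were seen.

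The target genes did not follow one order. HES1 was 7.63 ± 0.502 in A549, 4.91 ± 0.568 in DMS454, 1.63 ± 0.420 in H1299 and 1.58 ± 0.315 in H1694, and the last pair overlapped. HEY1 had the lines at the ends exchanged, with 13.5 ± 0.466 in H1694, 12.8 ± 0.204 in DMS454, 0.947 ± 0.0939 in H1299 and 0.354 ± 0.0666 in A549. DMS454 lay above H1299 for both genes. NRARP was 12.5 ± 0.958 in DMS454, 6.38 ± 0.212 in A549, 6.11 ± 0.578 in H1694 and 2.58 ± 0.961 in H1299, with A549 and H1694 overlapping. HES1 and HEY1, both repressors of the same family, thus stood, by their means, at opposite ends in A549 and H1694.

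Changes between arms were tested in each line alone, with limma on log2(normalized count + 1) and Benjamini-Hochberg adjustment over all genes with a group mean of at least 10 normalized counts. A gene is said to have risen or fallen where the adjusted p was under 0.05. In A549, 9 of the 10 genes could be tested (DLL1 was too low): 3 rose (NOTCH2, JAG1, JAG2) and 2 fell (NOTCH3, HES1). In that line 44.4% of all tested genes passed, 22.5% as rises and 21.9% as falls. In H1299 all 10 were tested: 2 rose (JAG1, HEY1) and 1 fell (DLL3), where 28.8% of all genes passed, 13.5% as rises and 15.3% as falls. In DMS454, 9 were tested (NOTCH3 was too low): 2 rose (NOTCH2, HES1) and 4 fell (DLL1, JAG2, HEY1, NRARP), where 18.9% of all genes passed, 9.15% as rises and 9.72% as falls. In H1694 all 10 were tested: 6 rose (NOTCH1, NOTCH3, DLL3, HES1, HEY1, NRARP) and 1 fell (JAG1), where 17.6% of all genes passed, 8.73% as rises and 8.9% as falls.

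The share called was thus near the background in A549 (5 of 9) and H1299 (3 of 10), and above it in DMS454 (6 of 9) and H1694 (7 of 10). As the members were chosen with earlier results of these data known, these shares are a description only. The median log2 change of the tested members was -0.12 in A549, -0.003 in H1299, -0.19 in DMS454 and 0.44 in H1694, beside medians of all tested genes between -0.002 and 0.002. Groups did not overlap for 5 of 9 members in A549 (51.8% of all tested genes), 5 of 10 in H1299 (43.3%), 7 of 9 in DMS454 (36.6%) and 7 of 10 in H1694 (35%). Without the libraries numbered 1, H1299 had 5 calls instead of 3, 4 rises and 1 fall, where 54.9% of all genes passed, and without OE 2 it had 1, where 17.6% passed. Leaving out the third DMS454 library labelled CRISPR gave 8 calls of 9 (34.9% of all genes) and leaving out its control 3 gave 3 (10.6%). Leaving out the first H1694 library labelled CRISPR gave 8 of 10 (25.3%). No gene was called in the same direction in all 4 lines.

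**Figure D2:**
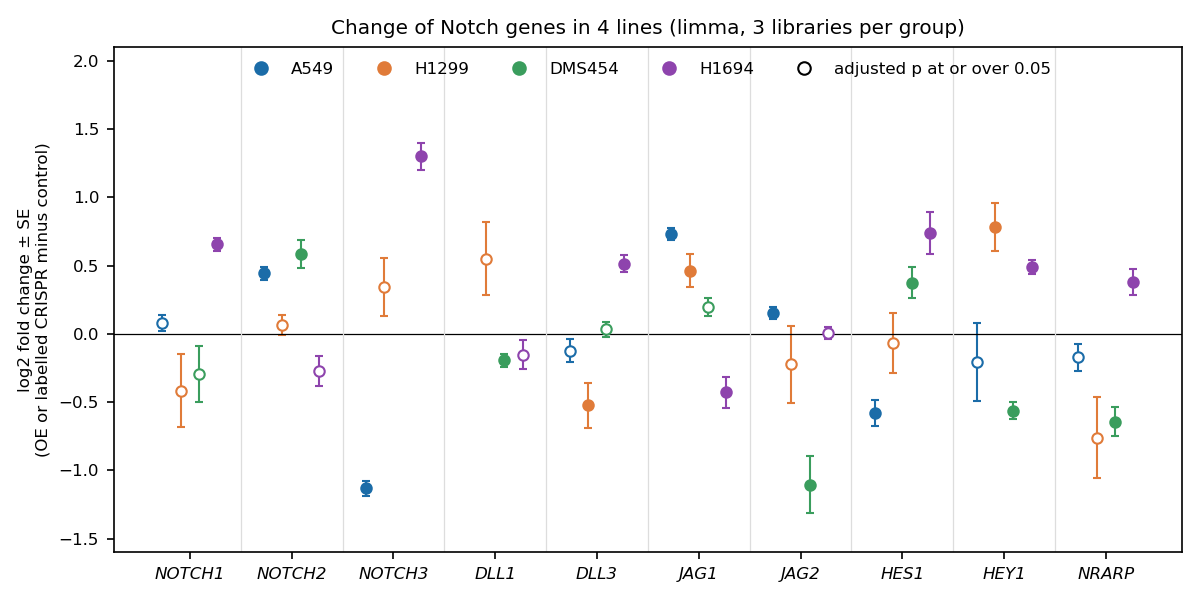
Log2 change of each Notch gene in the 4 lines (OE minus control in A549 and H1299, labelled CRISPR minus labelled control in DMS454 and H1694), with its standard error. Filled points have an adjusted p under 0.05 by limma: NOTCH3 lies at -1.13 in A549 and 1.30 in H1694, and HEY1 at -0.56 in DMS454 and 0.49 in H1694.

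Of the receptors, NOTCH3 had the largest changes, in opposite directions in A549 and H1694. In A549 the controls held 1685, 1709.9 and 1552 normalized counts of NOTCH3 and the OE libraries 764, 776 and 714. The OE libraries were all less than every control, and the mean was 2.19-fold lower (log2 change -1.13, SE 0.05, adjusted p = 1.5e-23). In H1694 the labelled controls held 192, 159.9 and 202, and the libraries labelled CRISPR held 466, 423 and 474. All 3 of the latter exceeded every control, with a mean 2.46-fold higher (log2 change 1.30, SE 0.10, adjusted p = 2.4e-07). In H1299 the NOTCH3 controls held 80.3, 67.5 and 51.0 and the OE libraries 73.1, 98.2 and 79.1. These groups overlapped, and the change of 0.34 (SE 0.21) did not pass (adjusted p = 0.255), although without the libraries numbered 1 it was 0.58 (adjusted p = 0.0267). It passed in no other alternative, that with the GC trend removed among them. NOTCH3 in DMS454 held 4.17 to 8.48 normalized counts in the 6 libraries and was not tested.

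NOTCH1 changed in H1694. Its labelled controls held 1699, 1593 and 1637 normalized counts there, and the libraries labelled CRISPR 2658, 2501 and 2608. The groups were well apart, at a 1.58-fold higher mean (log2 change 0.66, SE 0.05, adjusted p = 8.5e-08). In A549 the NOTCH1 controls held 772, 805 and 751 and the OE libraries 764, 812 and 893, which overlapped (log2 change 0.08, SE 0.06, adjusted p = 0.264). In DMS454 the labelled controls held 89.6, 110.3 and 93.2, and the libraries labelled CRISPR 66.5, 65.5 and 114. The third of the latter lay above all controls and the others below (log2 change -0.29, SE 0.21, adjusted p = 0.359); without it NOTCH1 fell by 0.55 on the log2 scale (adjusted p = 0.0102). In H1299 the controls held 100.3, 57.2 and 49.9 and the OE libraries 44.6, 49.1 and 54.5. Control 1 stood alone above the rest, and the change of -0.42 (SE 0.26) did not pass (adjusted p = 0.271); with the GC trend of each library removed it was -0.68 (adjusted p = 0.0133), and without the libraries numbered 1 it was -0.05 (adjusted p = 0.88).

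NOTCH2 rose in A549 and in DMS454. The A549 controls held 1649.8, 1568 and 1476 normalized counts of NOTCH2 and the OE libraries 2119, 2110.0 and 2143, a 1.36-fold higher mean without overlap (log2 change 0.44, SE 0.04, adjusted p = 1.2e-11). In DMS454 the labelled controls held 251, 315 and 253, and the libraries labelled CRISPR 397, 389 and 440.3. Again no libraries overlapped, and the mean was 1.5-fold higher (log2 change 0.59, SE 0.10, adjusted p = 0.0022). In H1694 NOTCH2 held 836, 727 and 688 in the labelled controls and 725, 600.5 and 547 in those labelled CRISPR, which overlapped (log2 change -0.27, SE 0.11, adjusted p = 0.129). Without the first H1694 library labelled CRISPR the NOTCH2 change was -0.38 and passed (adjusted p = 0.000911), as it did with no filter on low values (adjusted p = 0.00368). The H1299 values of NOTCH2 were 1969.9 ± 47.1 without and 2059 ± 108 with OE (log2 change 0.06, SE 0.07, adjusted p = 0.542). The reads it may share with its copies apply to all of these values.

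**Figure D3:**
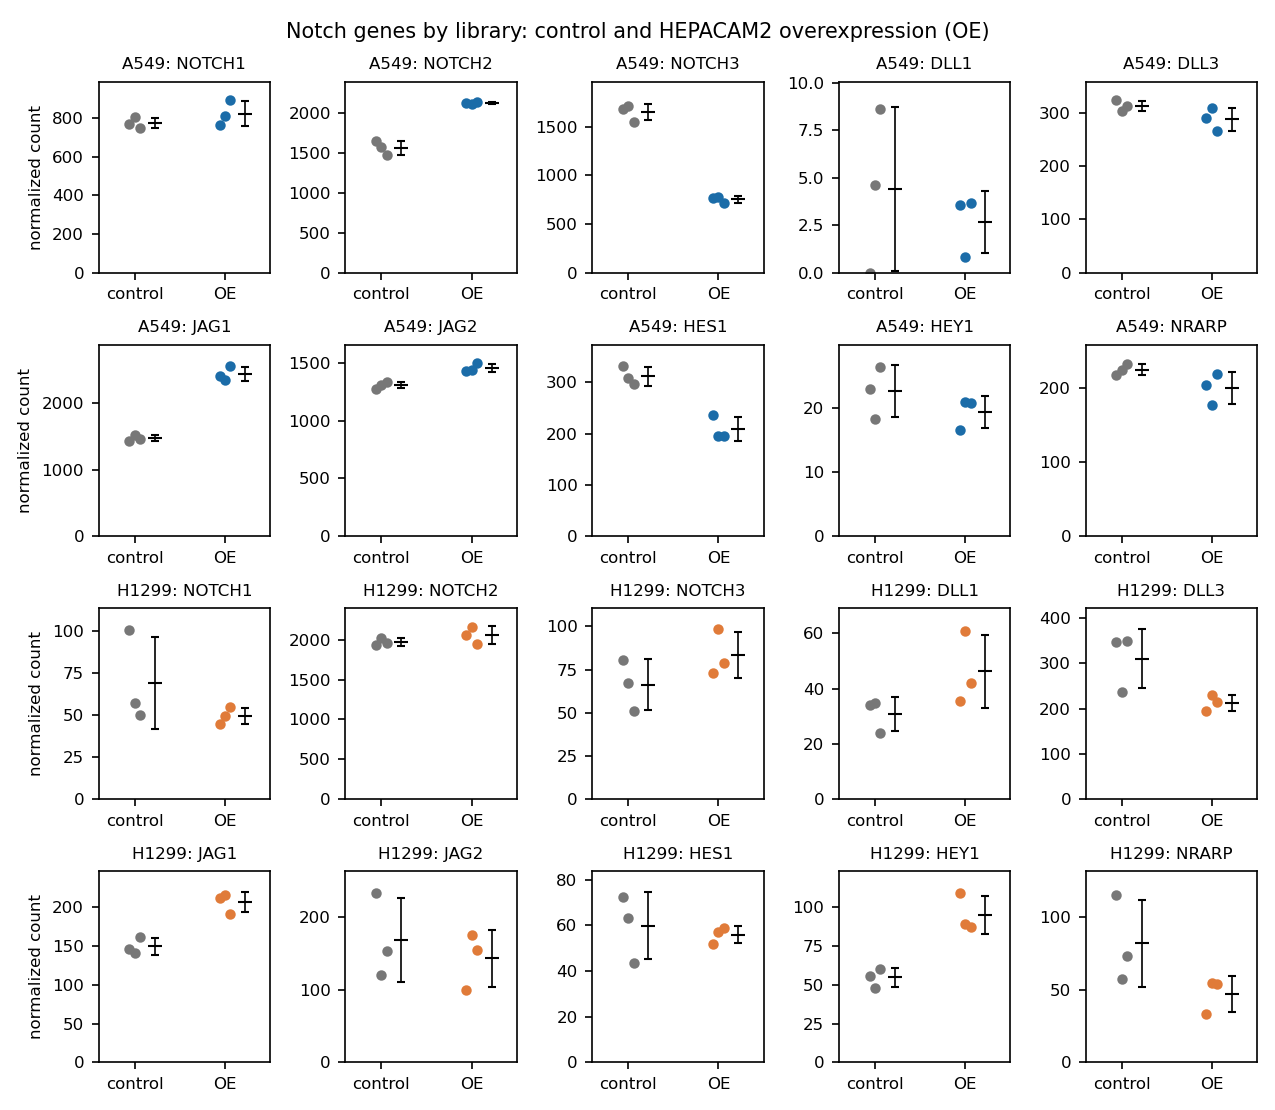
Normalized counts of the Notch genes in each control and OE library of A549 and H1299, with linear axes that start at 0. Points are libraries, and the mean and its SD stand beside them: in A549 the NOTCH3 points of the OE arm (714 to 776) lie below all controls (1552 to 1709.9) and the JAG1 points (2344 to 2561) above them (1433 to 1522).

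Among the ligands, JAG1 rose in both overexpression lines. The A549 controls held 1433, 1522 and 1455 normalized counts of JAG1 and the OE libraries 2415, 2344 and 2561. Every OE library exceeded every control, at a 1.66-fold higher mean (log2 change 0.73, SE 0.04, adjusted p = 6.1e-19). In H1299 the controls held 146, 141 and 162 and the OE libraries 212, 216 and 192, again apart, with a 1.38-fold higher mean (log2 change 0.46, SE 0.12, adjusted p = 0.0203). The H1299 call of JAG1 was lost without control 2 (adjusted p = 0.0783) or OE 2 (adjusted p = 0.0842). In H1694 JAG1 went the other way, with 249, 277 and 279 in the labelled controls and 210.0, 169.9 and 220.1 in the libraries labelled CRISPR. No libraries overlapped and the mean was 1.34-fold lower (log2 change -0.43, SE 0.11, adjusted p = 0.0140), but the call was lost without control 2 (adjusted p = 0.0721), control 3 (adjusted p = 0.0599) or the second library labelled CRISPR (adjusted p = 0.0837). In DMS454 JAG1 held 669, 759.5 and 681 against 789, 806 and 816, a change of 0.19 (SE 0.07) that just missed the threshold (adjusted p = 0.0604). The groups did not overlap there, and without the third library labelled CRISPR the adjusted p was 0.0264.

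JAG2 fell in DMS454. Its labelled controls held 1459.5, 1408 and 1434 normalized counts, and the libraries labelled CRISPR 589.8, 539.6 and 929.7. All 3 lay below the controls, the third nearer to them than the others, and the mean was 2.09-fold lower (log2 change -1.10, SE 0.21, adjusted p = 0.0198). The fall of JAG2 was -1.34 (adjusted p = 1.13e-20) without the third library, and the call was lost when any 1 control (adjusted p of 0.053 to 0.0637) or the first library labelled CRISPR (adjusted p = 0.0765) was left out, or with no filter on low values (adjusted p = 0.0721). In H1694, the line with the most JAG2, the labelled controls held 12813, 11950.4 and 12864 and the libraries labelled CRISPR 12020.5, 12591 and 13253. These overlapped, and the change was 0.01 (SE 0.04, adjusted p = 0.915). In A549 JAG2 held 1279, 1313 and 1334 in the controls and 1429, 1441 and 1497 with OE, a small rise of 0.15 (SE 0.05, adjusted p = 0.0056) with no overlap. In H1299 the JAG2 controls spread from 121 to 233 and the OE libraries from 99.9 to 175 (log2 change -0.22, SE 0.28, adjusted p = 0.592). The H1299 value turned to 0.28 (adjusted p = 0.139) without the libraries numbered 1, while with the GC trend of each library removed it was -0.50 and passed (adjusted p = 0.0117).

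Of the Delta ligands, DLL3 rose in H1694, where the labelled controls held 505, 478 and 511 normalized counts and the libraries labelled CRISPR 693, 714 and 728. The arms did not overlap, and the mean was 1.43-fold higher (log2 change 0.52, SE 0.06, adjusted p = 3.2e-05). In H1299 DLL3 fell from 346, 236 and 348 in the controls to 194, 229.6 and 214 with OE, a 1.46-fold lower mean without overlap (log2 change -0.52, SE 0.16, adjusted p = 0.0411). The H1299 call was lost when any 1 library other than control 2 was left out (adjusted p of 0.0669 to 0.152), while the change without both libraries numbered 1 was -0.37 (adjusted p = 0.0348). In DMS454, the line with most DLL3, it was 2095 ± 32.8 against 2146 ± 138 (log2 change 0.03, SE 0.05, adjusted p = 0.717). In A549 DLL3 was 313 ± 9.90 against 288 ± 21.5 (log2 change -0.12, SE 0.08, adjusted p = 0.245).

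DLL1 fell slightly in DMS454, with 2751, 2839 and 2879.6 normalized counts in the labelled controls and 2569.5, 2352 and 2495 in the libraries labelled CRISPR. The groups stood apart, but the change was small (log2 change -0.19, SE 0.05, adjusted p = 0.0139), and the call was lost without control 2 (adjusted p = 0.0709), control 3 (adjusted p = 0.0798) or the second library labelled CRISPR (adjusted p = 0.064). In H1694 DLL1 was 216 ± 15.2 against 194 ± 19.5 (log2 change -0.15, SE 0.11, adjusted p = 0.372). In H1299 its controls held 34.0, 34.8 and 23.9 and the OE libraries 35.7, 61 and 42.2. Each OE library was above each control, yet the change of 0.55 (SE 0.26) did not pass (adjusted p = 0.150). Without the libraries numbered 1 it was 0.79 (adjusted p = 0.0242), and it passed in no other alternative, that with the GC trend removed among them. In A549 DLL1 held 0 to 8.61 normalized counts and was not tested.

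**Figure D4:**
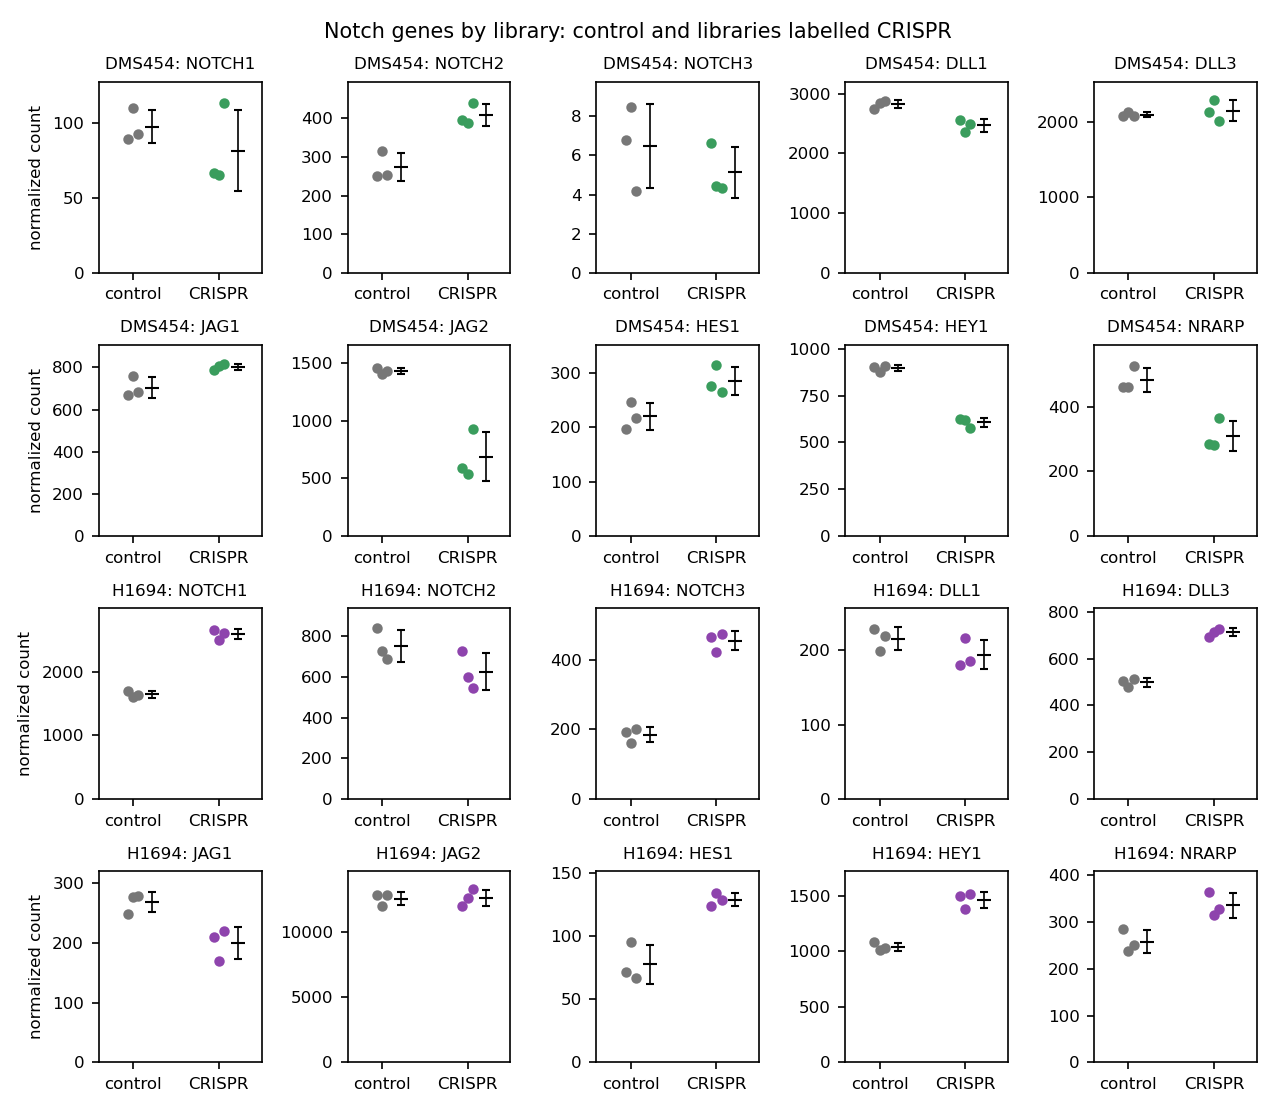
Normalized counts of the Notch genes in each library of DMS454 and H1694, labelled control and labelled CRISPR, with linear axes that start at 0. Points are libraries, and the mean and its SD stand beside them: HEY1 lies at 879 to 909 in the labelled controls of DMS454 and at 578 to 625 in the libraries labelled CRISPR, while in H1694 it lies at 1016 to 1084 and at 1380.5 to 1514.

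All 3 target genes rose in H1694, and in no other line were all 3 called in 1 direction. In A549 all 3 changes were negative, but only that of HES1 passed. HES1 in H1694 held 71.1, 95.3 and 66.7 normalized counts in the labelled controls and 124, 134 and 128 in the libraries labelled CRISPR. The arms did not overlap, and the mean was 1.66-fold higher (log2 change 0.74, SE 0.16, adjusted p = 0.0037). In DMS454 HES1 also rose, from 197, 247 and 217 to 276, 314 and 266 (log2 change 0.38, SE 0.11, adjusted p = 0.0337), with no overlap. That DMS454 call was lost without control 1 (adjusted p = 0.135), control 3 (adjusted p = 0.104), the first (adjusted p = 0.081) or the second (adjusted p = 0.14) library labelled CRISPR, and by DESeq2 (adjusted p = 0.0567). In A549 HES1 fell, from 332, 308 and 296 in the controls to 237, 196 and 196 with OE, a 1.49-fold lower mean (log2 change -0.58, SE 0.09, adjusted p = 1.3e-06). In H1299 HES1 was 59.8 ± 14.7 against 55.9 ± 3.71, and its change of -0.07 (SE 0.22, adjusted p = 0.838) turned to 0.14 (adjusted p = 0.654) without the libraries numbered 1.

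HEY1 changed in 3 lines. In DMS454 the labelled controls held 903, 879 and 909 normalized counts of HEY1 and the libraries labelled CRISPR 625, 618 and 578. All of the latter were lower, at a 1.48-fold lower mean (log2 change -0.56, SE 0.06, adjusted p = 7.2e-05). In H1694 HEY1 held 1084, 1016 and 1026 against 1501, 1380.5 and 1514. Here all libraries labelled CRISPR were higher, at a 1.41-fold higher mean (log2 change 0.49, SE 0.05, adjusted p = 1.1e-05). In H1299 the controls held 55.8, 48.0 and 60.3 and the OE libraries 109, 88.9 and 87.0, a 1.73-fold higher mean without overlap (log2 change 0.78, SE 0.17, adjusted p = 0.0106). In A549, where HEY1 was lowest, it held 23.1, 18.4 and 26.5 against 16.6, 20.9 and 20.8, which overlapped (log2 change -0.20, SE 0.29, adjusted p = 0.596).

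NRARP went with HEY1 in the small cell lines. In DMS454 its labelled controls held 460.3, 461 and 526 normalized counts and the libraries labelled CRISPR 284, 281 and 365. NRARP was thus lower in all 3, at a 1.56-fold lower mean (log2 change -0.64, SE 0.11, adjusted p = 0.0015). In H1694 NRARP held 286, 238 and 251 against 365, 315 and 328, with no overlap and a 1.30-fold higher mean (log2 change 0.38, SE 0.10, adjusted p = 0.0119), but the call was lost without control 2 (adjusted p = 0.0743). In A549 NRARP was 224 ± 7.56 against 199.6 ± 21.6 (log2 change -0.17, SE 0.10, adjusted p = 0.165). In H1299 its controls held 115, 57.2 and 72.8 and the OE libraries 33.0, 54.4 and 53.6. Library 1 was the highest of the controls and the lowest of the OE libraries, and the change of -0.76 (SE 0.29) did not pass (adjusted p = 0.0842). It passed by DESeq2 (log2 change -0.81, adjusted p = 0.0442) and with the GC trend removed (-1.09, adjusted p = 0.000272), and was -0.25 (adjusted p = 0.355) without the libraries numbered 1.

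Whether the lines of a pair differed in their change was tested as the interaction of line and arm in 1 limma fit over both lines, with 9 members tested in each pair. Between the overexpression lines, 3 of 9 members differed (NOTCH2, NOTCH3 and HEY1), where 41.2% of all tested genes did. The change in H1299 exceeded that in A549 by 1.47 (SE 0.20, adjusted p = 6.1e-05) for NOTCH3 and by 0.99 (SE 0.29, adjusted p = 0.0127) for HEY1. For NOTCH2 the difference was -0.38 (SE 0.08, adjusted p = 0.0019). These differences compare a fall of NOTCH3 and a rise of NOTCH2 in A549 with values that did not pass in H1299, and a rise of HEY1 in H1299 with a value that did not pass in A549. JAG1, which rose in both lines, had a difference of -0.27 (SE 0.11) that did not pass (adjusted p = 0.0616). Without the H1299 libraries numbered 1 the JAG1 difference was -0.30 and passed (adjusted p = 0.00894). It also passed without H1299 control 1, control 2 or OE 1 alone (adjusted p of 0.0435 to 0.0484). HES1 had a difference of 0.51 (SE 0.24) that did not pass (adjusted p = 0.0982). It was 0.72 and passed (adjusted p = 0.00424) without the H1299 libraries numbered 1, and passed without H1299 control 1 alone (adjusted p = 0.0228). The differences of DLL3 (-0.40, adjusted p = 0.108) and NOTCH1 (-0.50, adjusted p = 0.169) did not pass. That of DLL3 passed only without H1299 control 2 (adjusted p = 0.0051), and that of NOTCH1 only without H1299 control 3 (adjusted p = 0.0406).

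Between the small cell lines, 7 of 9 members differed, where 20.2% of all tested genes did. This share too is only a description of members chosen with earlier results known. The change in H1694 exceeded that in DMS454 by 1.05 (SE 0.08, adjusted p = 1.7e-07) for HEY1 and by 1.02 (SE 0.16, adjusted p = 0.00025) for NRARP, both of which fell in DMS454 and rose in H1694. For JAG2 the excess was 1.11 (SE 0.24, adjusted p = 0.0104), for NOTCH1 0.95 (SE 0.23, adjusted p = 0.0116) and for DLL3 0.48 (SE 0.08, adjusted p = 0.00035). NOTCH2 and JAG1 differed the other way, by -0.86 (SE 0.16, adjusted p = 0.0014) and -0.62 (SE 0.13, adjusted p = 0.0035). HES1, which rose in both lines, had a difference of 0.36 (SE 0.20, adjusted p = 0.218), and DLL1 one of 0.04 (SE 0.10, adjusted p = 0.826). The 7 calls passed in each of the 15 alternatives run, among them those without the libraries that stood apart. GC trend removal, edgeR, DESeq2 and the other filters were not run for the differences of either pair.

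The other genes of the pathway were read from a list of 57, holding further ligands, the enzymes that modify or cut receptors and ligands, the nuclear partners of Notch and further HES and HEY genes. In A549, 13 of 51 tested rose and 14 fell, beside 22.5% and 21.9% of all tested genes. In H1299, 9 of 50 rose and 3 fell, beside 13.5% and 15.3%. In DMS454, 5 of 53 rose and 7 fell, beside 9.15% and 9.72%, and in H1694 4 of 57 rose and 8 fell, beside 8.73% and 8.9%. The list's median log2 changes were -0.03, 0.10, -0.04 and 0.03. Without the libraries numbered 1, H1299 had 21 rises and 8 falls of 50, beside 27% and 27.9% of all genes in that setting. Without the third library labelled CRISPR, DMS454 had 13 rises and 12 falls of 53, beside 16.7% and 18.2%.

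**Figure D5:**
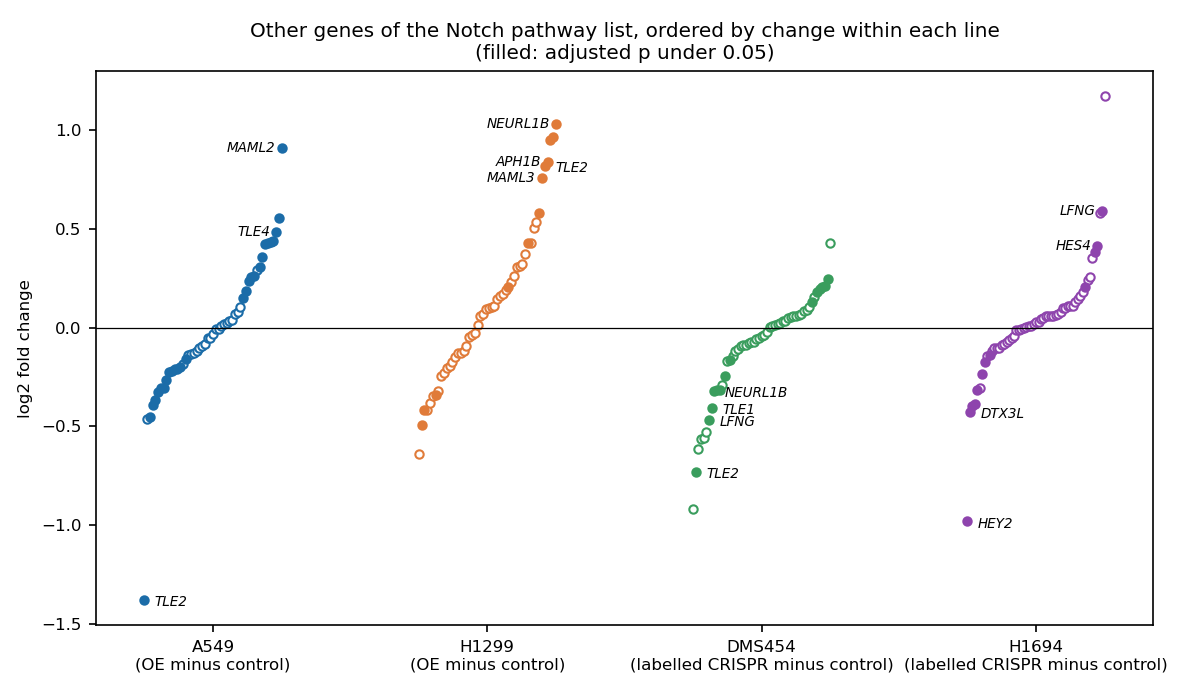
Log2 change of each tested gene of the Notch pathway list in the 4 lines, with the genes named for the size of their change labelled. Filled points have an adjusted p under 0.05 by limma, and 27, 12, 12 and 12 genes are filled in A549, H1299, DMS454 and H1694.

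In A549 nuclear cofactors of the list changed in both directions. TLE2, a Groucho-type corepressor, fell from 236 ± 13.9 to 90.3 ± 5.03 normalized counts (log2 change -1.38, SE 0.12, adjusted p = 6.5e-14). MAML2, a Mastermind coactivator, rose from 56.0 ± 13.5 to 104 ± 11.9 (log2 change 0.91, SE 0.17, adjusted p = 2.2e-05). TLE4, another Groucho-type corepressor, rose as well (log2 change 0.49, SE 0.06, adjusted p = 1.6e-09). In H1299 NEURL1B, a ubiquitin ligase that acts on ligands, rose from 94.4 ± 23.8 to 192 ± 30.7 (log2 change 1.03, SE 0.20, adjusted p = 0.0059). APH1B, a subunit of the gamma-secretase that cuts receptors, rose there from 216 ± 14.9 to 389 ± 51.6 (log2 change 0.84, SE 0.12, adjusted p = 0.0016). TLE2 and MAML3 were also higher in H1299 (log2 changes of 0.82 and 0.76, adjusted p of 0.0387 and 0.0123). Their calls were lost when OE 2 (adjusted p of 0.0536 and 0.0557) or OE 3 (adjusted p of 0.147 and 0.0558) was left out, and that of TLE2 also without control 2 (adjusted p = 0.0914) or control 3 (adjusted p = 0.132) or with the GC trend removed (adjusted p = 0.0757). TLE2 thus moved in opposite directions in the overexpression lines, and the interaction of line and arm was 2.20 (SE 0.27, adjusted p = 2.2e-05).

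LFNG, a glycosyltransferase that alters which ligands a receptor answers to, changed in opposite directions in the small cell lines. In DMS454 it fell from 3891 ± 91.6 to 2819 ± 101 normalized counts (log2 change -0.47, SE 0.04, adjusted p = 2.7e-05). In H1694 LFNG rose from 495 ± 13.8 to 746 ± 18.9 (log2 change 0.59, SE 0.06, adjusted p = 6.7e-06), and the difference was 1.06 (SE 0.07, adjusted p = 2.3e-08). HES6, a HES gene active in neuroendocrine cells, showed the same pattern with a log2 change of -0.24 in DMS454 (adjusted p = 0.00097) and 0.38 in H1694 (adjusted p = 1.4e-05), differing by 0.63 (SE 0.06, adjusted p = 1.4e-06). HEY2, a relative of HEY1, fell in H1694 from 752 ± 27.9 to 381 ± 24.2 (log2 change -0.98, SE 0.07, adjusted p = 1.1e-07), while HEY1 rose there. HES4 rose in H1694 by 0.42 (SE 0.07, adjusted p = 0.00062) and DTX3L, a ubiquitin ligase, was lower, at a log2 change of -0.43 (SE 0.08, adjusted p = 0.0012). In DMS454 NEURL1B fell by 0.32 on the log2 scale (SE 0.05, adjusted p = 0.00086). TLE2 and TLE1 were lower there too (log2 changes of -0.73 and -0.41, adjusted p of 0.0216 and 0.0143). The TLE2 call in DMS454 was lost without any 1 library other than the third labelled CRISPR (adjusted p of 0.059 to 0.0997), and that of TLE1 without control 1 (adjusted p = 0.0782), control 2 (adjusted p = 0.0636) or the second library labelled CRISPR (adjusted p = 0.0594).

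The levels of 3 regulators of the neuroendocrine state were read in every line. NEUROD1, a neuronal transcription factor that marks a subtype of small cell lung cancer, was at 21706 ± 80.5 in H1694 against 21074 ± 358 (log2 change -0.04, SE 0.03, adjusted p = 0.431). In DMS454 NEUROD1 rose from 68.2 ± 6.39 to 113 ± 19.9 (log2 change 0.71, SE 0.17, adjusted p = 0.0117). INSM1, a neuroendocrine zinc finger factor, was 25056 ± 299 against 24099.5 ± 686 in DMS454 (adjusted p = 0.275) and 9947 ± 648 against 11325 ± 926 in H1694 (adjusted p = 0.0711). NEUROD1 and INSM1 were too low to test in A549 and H1299. REST, a repressor of neuronal genes, rose in A549 from 627 ± 19.9 to 792 ± 35.3 (log2 change 0.34, SE 0.06, adjusted p = 5.7e-06). Its change was -0.19 in H1299 (adjusted p = 0.141), -0.40 in DMS454 (SE 0.31, adjusted p = 0.405) and -0.05 in H1694 (adjusted p = 0.824). REST was near the filter in DMS454, at 18.3 ± 2.33 normalized counts in the labelled controls and 13.8 ± 3.30 in the libraries labelled CRISPR. In the labelled controls of H1694 it was at 145 ± 11.0, and in the H1299 controls at 754 ± 48.1.

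The genes whose pattern was most like that of each target gene were found by Pearson's r of log2(normalized count + 1), centred on the mean of each line, over the 24 libraries and 12211 genes tested in all lines. These values describe the libraries and carry no test, since libraries of an arm share their line, arm and composition. Nearest to HES1 were PTCH1 (r = 0.862), DHCR7 (0.853) and ETV4 (0.85). Nearest to HEY1 were AGO4 (0.895), CUTALP (0.894) and DLGAP1-AS1 (0.856). For NRARP they were HES6 (0.928), EMC6 (0.92) and SHC1 (0.906). The library kit was strand-specific per the labels, but whether strand was used in counting is not given in the sources used here, so the antisense gene DLGAP1-AS1 is uncertain.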

How the data were processed

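RNA-seq from a strand-specific kit was made for 24 libraries of established cell lines. The deposited values are normalized counts (a signal per gene and library) that the authors made with DESeq2, per the submitters' processing notes, which also name hg38, CASAVA, FastQC, Trim Galore and STAR. For the counter and its annotation: not given in the sources used here. Values were whole reads divided by 1 factor per library: 100% came out whole within 0.01. Names, lengths and GC content came from GENCODE on GRCh38. Tests used limma 3.58.1 (trend, robust) in R 4.3.3, with a pseudocount of 1, so a fold change of a low gene is understated. The p-values measure the spread between these libraries. On simulated counts, log2 changes of 1 were recovered for 99 to 100% of genes and changes of 0.5 for 54, 67, 59 and 65% (A549, H1299, DMS454, H1694). The simulated counts had 1 fixed spread for all genes and lines, no library that stood apart and no GC trend. Only genes with a mean of at least 50 were changed. These percentages therefore do not give the power in the real libraries or rank the lines by it.

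Alternatives were TMM scaling, no filter, a filter of 50, a pseudocount of 5, edgeR 4.0.16 and DESeq2 1.42.0 on the recovered reads, GC trend removal, a replicate block and leaving out libraries. For the differences between lines only TMM scaling, the pseudocount of 5, the block and leaving out libraries were run. Members and lists were chosen with earlier results of these data known. Of the pathway list, the text names up to 4 called genes per line, those of largest log2 change with a group mean of 50 or more, and any of them set beside the same gene in another line. DLL4 and HES6 were added to these after their values were seen. HEPACAM2 and the regulators were named whatever their values, and the 3 nearest genes per target by r. Some genes that this rule names are not reported here.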

Additional observations from a re-analysis of the deposited data

Results flagged for a closer look

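Members of the Notch list whose change differed between the lines of a pair, by the interaction of line and arm in limma, are given here with that difference on the log2 scale. In H1299 against A549 it was 1.47 for NOTCH3, 0.987 for HEY1 and -0.379 for NOTCH2. In H1694 against DMS454 it was 1.11 for JAG2, 1.05 for HEY1, 1.02 for NRARP, 0.95 for NOTCH1, 0.482 for DLL3, -0.622 for JAG1 and -0.857 for NOTCH2. All 10 kept their direction and passed in every alternative run, which were 16 for the first pair and 15 for the second. The difference of NOTCH2 rests on values that may include reads of its near-identical copies. The differences of JAG2 and NOTCH1 between the small cell lines were 1.35 and 1.21 without the third DMS454 library labelled CRISPR.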

How the results depend on the processing

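DLL1 in A549 and NOTCH3 in DMS454 were under the filter on normalized counts, and small changes of genes with few reads are hard to detect at these depths. In A549 every member call held in all 14 alternatives. In H1299 the count of called members went from 3 to 6 with the GC trend removed, 0 with the replicate block and 5 without both libraries numbered 1, and to 1 to 2 when 1 library was left out. The pathway genes called there went from 12 to 27, 2, 29 and 5 to 16 in the same settings, and the genes called from 4665 to 1634 with the block, 8922 without both libraries and 2674 to 5429 with 1 left out. With 1 library left out, DMS454 gave 1964 to 6605 genes (main 3560), 3 to 8 members (6) and 4 to 25 pathway genes (12), H1694 gave 1835 to 4510 genes (3134), and the members that differed between H1299 and A549 were 3 to 5 (3), and 5 without both libraries numbered 1. The replicate numbers do not pair the libraries: same-numbered deviations had an r from -0.065 to -0.014 (A549), -0.538 to -0.181 (H1299), 0.01 to 0.027 (DMS454) and -0.085 to 0.123 (H1694). Under the replicate block the H1299 calls of DLL3 (adjusted p = 0.126), JAG1 (0.122) and HEY1 (0.0624) were lost and NOTCH2 in H1694 passed (0.00415); no other member call changed. Direction turned only for values that did not pass. With 1 library left out, JAG2 in H1299 ran from -0.437 to 0.0351, HES1 in H1299 from -0.275 to 0.083, DLL3 in DMS454 from -0.0153 to 0.0774, JAG2 in H1694 from -0.027 to 0.0434, and the difference of DLL1 between H1694 and DMS454 from -0.04 to 0.0907. Without both H1299 libraries numbered 1, JAG2 was 0.275, HES1 0.137 and the difference of JAG2 between H1299 and A549 0.121, and JAG2 in H1694 was -0.036 with the GC trend removed. The cause was not tested. Over single genes and differences, 761 values kept direction and call, 27 lost the call, 19 gained it and 12 turned. The order of control levels was also read in normalized counts, and 6 of 10 members were again highest in a small cell line.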
